A study of Mus musculus with 6 samples.

Results

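The Mmp+ M2 macrophages are a class of macrophages that the authors named in mouse prostate tumours, and 393 of the 5749 deposited cells (in 19 classes) carry this name. Members were all cells with that name in the authors' deposited table of cells. The tumours grew in C57Bl6 mice from PPS-ICBR, a prostate cancer line described as resistant to checkpoint blockade, and single cells of 4 groups of 3 tumours were sequenced for RNA in droplets. BD mice ate a butanediol diet, in which 198 g of chow was mixed with 80 mL of 1,3-butanediol, 120 mL of water and 2 g of saccharine, renewed every other day, and SD mice ate the standard chow. BD+ICB mice received this diet together with checkpoint blockade against PD-1 and CTLA-4, given at a listed dose of 0.2 mg every other week, and ICB mice, written SD+ICB in the deposited table, received the blockade on standard chow. Butanediol is turned into the ketone body β-hydroxybutyrate in the body, and the series asks whether a ketone-raising diet changes resistance to immunotherapy. All groups carried the same cancer line, and leukocytes were drawn from a Percoll gradient after enzymatic dissociation of the tumours. The sources used here do not give the age of the mice.

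Macrophages in tumours come largely from blood monocytes and take on different programmes depending on oxygen, cytokines and the debris they take up. Matrix metalloproteinases are secreted or membrane-bound enzymes that cut proteins of the extracellular matrix. Mmp12 (macrophage elastase) cuts elastin, and Mmp13 (collagenase 3) and Mmp8 (neutrophil collagenase) cut fibrillar collagen. Arginase 1, from Arg1, breaks arginine down to ornithine and is a classical mark of alternatively activated (M2) macrophages in mice. The inducible nitric oxide synthase, from Nos2, uses the same amino acid to make nitric oxide and is a classical mark of the opposite (M1) state.

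Each tumour carried its own hashtag antibody. The BD and SD tumours shared 1 library and the BD+ICB and ICB tumours another, so the blockade and the library cannot be told apart. The class held 49, 11 and 17 cells in BD tumours, 14, 15 and 21 in SD, 47, 22 and 48 in BD+ICB, and 46, 47 and 56 in ICB. The median UMI count per member ranged from 6343 to 15404 over the tumours, and the summed counts of tested genes per tumour from 113377 to 618841. The 2 libraries shared 1931 cell barcodes, and 0 members were among them. Median hashtag counts per member lay between 782 and 922 in BD tumours, against 1885 and 2252 in SD tumours, and between 1344 and 2109 in BD+ICB tumours, against 3009.5 and 4800 in ICB tumours. Listed tumour sizes, whose unit is not stated, lay between 172 and 203 in BD, against 870 and 2348 in SD, and between 23 and 90 in BD+ICB, against 289 and 1116 in ICB, so diet and tumour size cannot be told apart. In sums over cells, more cells that express a gene and more RNA per cell cannot be told apart either.

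All 5 marker genes given for the class were higher there than in any of the other classes, out of 18 that had a tumour with at least 10 cells. The authors grouped the cells on these same counts, so the marker levels describe the class and do not test its name. Levels are in CPM, a gene's counts summed over a tumour's cells of a class and scaled to the same total for every tumour and class, averaged over tumours. Mmp12 (ENSMUSG00000049723) averaged 1864 CPM in the Mmp+ M2 macrophages, from 854 to 3323 over the tumours, against 407 in the next class, Nos2+ dendritic cells. Mmp13 (ENSMUSG00000050578) averaged 339 CPM and ranged from 42.3 to 1146, against 242 in Ifit+ monocytes, a class of only 49 cells in all. Arg1 averaged 4374 CPM (1643 to 6960) against 3782 in Ifit+ monocytes. The secreted matrix protein osteopontin, from Spp1, averaged 6411 CPM (1777 to 12270) against 2990 in M1 macrophages. The platelet factor 4 chemokine, from Pf4, averaged 2936 CPM (1297 to 5198) against 1581 in the Trem2+ M2 macrophages. The lowest tumour of the Mmp+ class thus still lay above the mean of the next class for Mmp12 and below it for the other 4 markers.

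All 10 general macrophage genes were over 20 CPM in the class, among them Csf1r, the receptor of the macrophage growth factor, at 347 CPM, Adgre1, which encodes F4/80, at 128 CPM, and the complement gene C1qa at 1555 CPM. Of 7 dendritic cell, 7 T cell, 4 NK cell, 4 B cell and 4 red cell genes, 0 were over 20 CPM, and Cd4 (helper T cells), Ncr1 (NK cells) and Ms4a1 (B cells) were at 0 in every tumour. Genes of other types were present at low levels. Of 6 monocyte genes 4 were over 20 CPM (summed level 146 to 811 CPM over the tumours), of 8 neutrophil genes 4 (115 to 1360 CPM), of 7 mesenchymal genes 5 (226 to 369 CPM, against 5792 to 18467 CPM in the mesenchymal class), of 5 prostate epithelium genes 1 (7.61 to 94.4 CPM) and of 3 endothelial genes 1. Of 7 osteoclast genes 3 were over 20 CPM, Acp5 at 168 CPM, Nfatc1 at 32.2 CPM and Atp6v0d2 at 22.6 CPM, and Oscar was at 0. The mannose receptor gene Mrc1, another usual M2 mark, averaged 210 CPM in the class and 489 CPM in the Trem2+ M2 macrophages. In the Mmp+ class the M2 name thus went with high Arg1 and with less Mrc1 than in the Trem2+ class. Arg1 averaged 1041 CPM in the Trem2+ M2 and 1982 CPM in M1 macrophages, so the 2 classes named M2 did not share high Arg1. Trem2 itself, a lipid receptor of macrophages, was at 482 CPM in the Mmp+ class and at 496 CPM in the class named after it.

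Genes that set the class apart were ranked by the log2 difference in CPM + 1 between the class and the mean of the other 3 macrophage classes of the same tumour (Trem2+ M2, M1 and other macrophages), averaged over 12 tumours. The cells were grouped by their authors on these same genes, so the ranking is a description with no test. Nos2 led it, with a difference of 3.94 (1.51 to 7.34 over the tumours), followed by Mmp12 at 3.92 (2.44 to 6.09) and Mmp13 at 3.42 (0.50 to 7.70). A class named M2 thus held the highest Nos2 of the 4 macrophage classes, 269 CPM against 84.8 CPM in M1 macrophages, though Ifit+ monocytes stood at 301 CPM. The difference was positive in 12 of 12 tumours. Genes switched on by low oxygen were among the 20 leaders, namely Ankrd37 (3.08), the HIF prolyl hydroxylase gene Egln3 (2.87), the oxidative protein folding gene Ero1l (2.12) and the mitophagy gene Bnip3 (2.06), all positive in 12 of 12 tumours. The interferon-induced antiviral genes Rsad2 (3.03) and Ifit1 (2.56) varied more, Rsad2 from 0.48 to 10.1 and Ifit1 from -1.32 to 4.42. Other leaders were Selenbp1 (2.86), which encodes a selenium-binding protein, Mmp8 (2.80), the lysosomal glycoprotein gene Gpnmb (2.77), the co-stimulatory receptor gene Tnfrsf9 (2.54), the protease inhibitor gene Slpi, the proteoglycan gene Sdc1 (2.26) and the fatty acid transporter gene Cd36 (2.05). The platelet chemokine gene Ppbp (2.23) lies beside Pf4 on chromosome 5 (Ppbp at chr5:90768518-90770063 and Pf4 at chr5:90772435-90773383, GRCm38.p6). At the other end stood the interferon-induced chemokine gene Cxcl9 (-2.40) and the MHC class II genes H2-Eb1 (-2.32), H2-Aa (-1.99) and H2-Ab1 (-1.72), positive in 0 of 12 tumours.

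**Figure D1:**
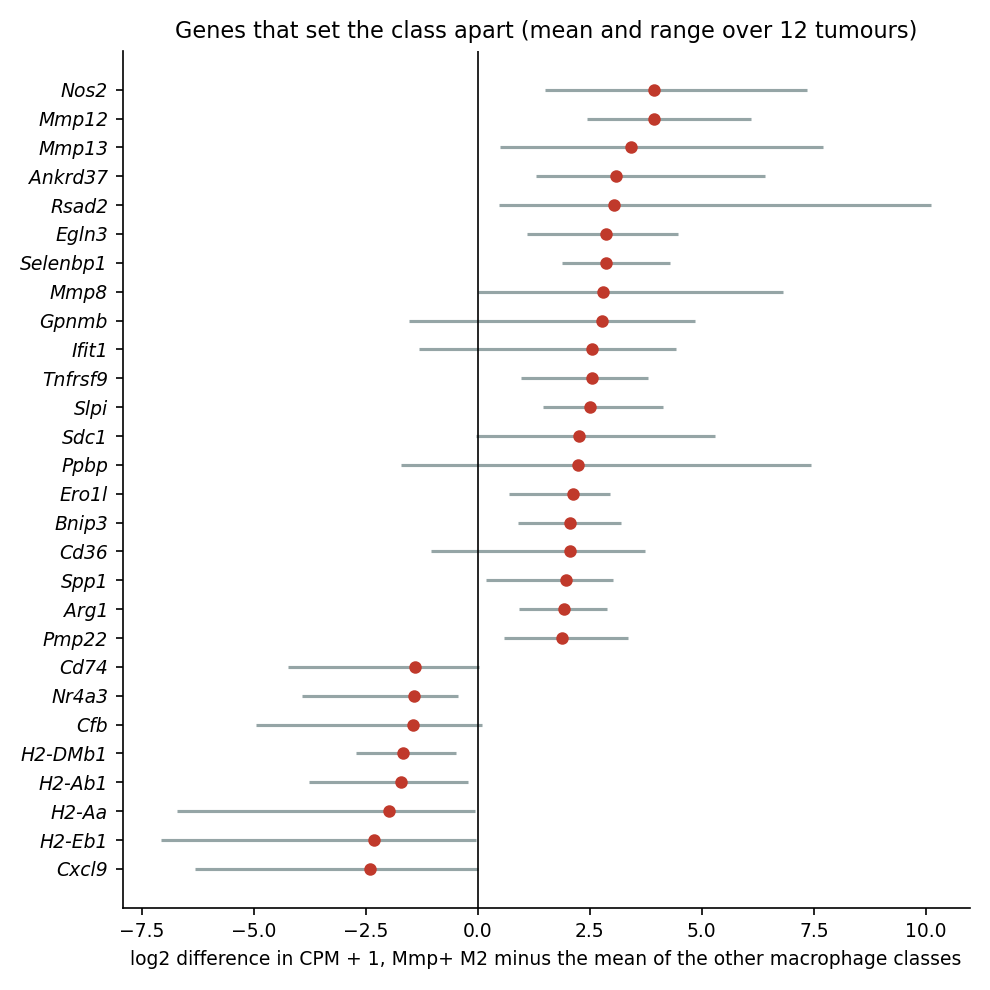
Genes that set the Mmp+ M2 macrophages apart from the other 3 macrophage classes; the x axis is the log2 difference in CPM + 1, points are means over 12 tumours and lines run from the lowest to the highest tumour. Nos2, Mmp12 and Mmp13 lie on the right of 0 in every tumour, and H2-Eb1, H2-Aa and H2-Ab1 on the left in every tumour.

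Among the leaders, Mmp12, Mmp13 and Mmp8 sit in a row of metalloproteinase genes on chromosome 9, Mmp13 at chr9:7272514-7283333, Mmp12 at chr9:7344397-7360461 and Mmp8 at chr9:7558429-7568486 (GRCm38.p6). Mmp3 and Mmp10, which lie between Mmp12 and Mmp8, were not among the genes tested between groups. Promoters are shown for leaders that hold a motif of a pathway seen above, as windows of 300 bases, from 250 before to 50 after an annotated start, read 5′ to 3′ in the gene's direction from RefSeq (GRCm38.p6). Capitals mark TGANTCA, the site of AP-1 factors, in Mmp12 and Mmp13, and ACGTG, the core bound by hypoxia-inducible factors, in Egln3 and Ankrd37. In Rsad2 and Ifit1 they mark GAAA followed after 2 free bases by another GAAA, a core of interferon response elements, which reads as TTTC, 2 free bases and TTTC where it lies on the other strand. Each motif was sought on both strands.
Mmp12, chr9:7347124-7347423, plus strand: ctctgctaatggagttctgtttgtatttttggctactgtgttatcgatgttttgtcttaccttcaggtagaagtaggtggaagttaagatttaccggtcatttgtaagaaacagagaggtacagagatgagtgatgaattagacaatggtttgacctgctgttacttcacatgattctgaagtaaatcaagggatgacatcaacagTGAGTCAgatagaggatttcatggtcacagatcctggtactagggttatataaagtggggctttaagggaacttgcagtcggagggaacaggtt
Mmp13, chr9:7272264-7272563, plus strand: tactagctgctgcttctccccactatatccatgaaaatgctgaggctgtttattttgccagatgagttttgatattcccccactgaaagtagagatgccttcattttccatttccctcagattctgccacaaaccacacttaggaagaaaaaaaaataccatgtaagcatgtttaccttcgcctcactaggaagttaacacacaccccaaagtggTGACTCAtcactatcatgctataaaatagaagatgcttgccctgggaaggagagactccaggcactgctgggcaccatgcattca
Egln3, chr12:54203825-54204124, minus strand: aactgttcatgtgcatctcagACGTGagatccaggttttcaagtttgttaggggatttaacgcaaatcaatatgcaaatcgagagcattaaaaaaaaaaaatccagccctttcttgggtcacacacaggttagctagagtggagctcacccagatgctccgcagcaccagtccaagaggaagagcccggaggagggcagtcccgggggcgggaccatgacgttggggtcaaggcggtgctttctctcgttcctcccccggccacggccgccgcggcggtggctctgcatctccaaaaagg
Ankrd37, chr8:45999801-46000100, minus strand: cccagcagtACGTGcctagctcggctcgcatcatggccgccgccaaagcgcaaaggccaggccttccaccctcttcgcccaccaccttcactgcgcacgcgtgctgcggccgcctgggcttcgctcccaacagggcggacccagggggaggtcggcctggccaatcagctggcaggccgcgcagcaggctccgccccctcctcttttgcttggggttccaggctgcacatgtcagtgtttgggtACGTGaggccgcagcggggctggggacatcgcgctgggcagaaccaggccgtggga
Rsad2, chr12:26456403-26456702, minus strand: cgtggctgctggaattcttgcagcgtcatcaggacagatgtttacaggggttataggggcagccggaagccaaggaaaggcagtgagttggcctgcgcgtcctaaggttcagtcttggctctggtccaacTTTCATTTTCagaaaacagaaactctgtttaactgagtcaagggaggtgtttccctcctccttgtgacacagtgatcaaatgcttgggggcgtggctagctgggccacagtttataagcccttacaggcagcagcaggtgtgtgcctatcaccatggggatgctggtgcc
Ifit1, chr19:34640639-34640938, plus strand: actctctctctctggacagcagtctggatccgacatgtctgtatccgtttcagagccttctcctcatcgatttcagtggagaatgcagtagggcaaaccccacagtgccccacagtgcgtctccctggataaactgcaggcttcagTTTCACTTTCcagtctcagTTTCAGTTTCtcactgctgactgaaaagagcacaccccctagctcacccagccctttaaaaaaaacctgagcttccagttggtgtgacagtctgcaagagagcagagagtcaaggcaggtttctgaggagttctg

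The AP-1 match began 44 bases before the start in Mmp12 and 35 bases before it in Mmp13, and the window of the other annotated Mmp12 start held none. Egln3 held ACGTG 229 bases before its start and Ankrd37 241 and 6 bases before it. Rsad2 held the interferon core 120 bases before its start and Ifit1 104 and 85 bases before it. Of the 20 leaders 17 had a promoter in the table. TGANTCA was in 6 of these 17 genes (35.3%), against 8.97% of 27025 genes. ACGTG was in 7 of 17 (41.2%), against 21.8%, and the interferon core in 4 of 17 (23.5%), against 3.99%. The genes with TGANTCA were Gpnmb, Mmp12, Mmp13, Ppbp, Rsad2 and Tnfrsf9. Those with ACGTG were Ankrd37, Bnip3, Egln3, Pmp22, Ppbp, Selenbp1 and Slpi. Those with the interferon core were Ifit1, Mmp13, Rsad2 and Spp1. The interferon core in the Mmp13 window and the TGANTCA in the Rsad2 window are not in capitals above. Of the whole hypoxia list, 17 of 22 genes (77.3%) held ACGTG, and of the type I interferon list 16 of 27 (59.3%) held the interferon core. A match is a stretch of letters and not a measured site, and no match says only that these letters are not in the window.

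By gene list, the class stood apart from the other macrophages most evenly in hypoxia and energy genes, again as a description. Of 4723 tested genes, 1662 were higher in the class, with a median log2 difference of -0.13. All 19 tested hypoxia genes were higher, with a median of 0.92, and the median of the list lay between 0.39 and 1.55 in each tumour. The glucose transporter gene Slc2a1 stood 1.44 above the other macrophages and Ndrg1, a stress-response gene, 1.43, both in 12 of 12 tumours. Of 19 glycolysis genes 18 were higher (median 0.83), with phosphoglycerate kinase Pgk1 at 1.21 and lactate dehydrogenase Ldha at 0.83. Of 35 nuclear genes of oxidative phosphorylation 0 were higher (median -0.35). Hif1a, which encodes the oxygen-regulated transcription factor itself, differed by 0.03 only.

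MHC class II genes stood lower, with 1 of 10 higher (median -1.38, between -2.06 and -0.13 in each tumour). Of 18 interferon-gamma response genes 5 were higher (median -0.51, between -1.67 and 0.59 in each tumour) and of 20 MHC class I genes 7 (median -0.40), counts near the share over all tested genes. Of the type I interferon list 17 of 24 were higher (median 0.37). The lists for the 2 textbook macrophage states lay on opposite sides of the median over all tested genes (-0.13). Of 15 genes of classical activation 9 were higher (median 0.14, between -0.11 and 1.02 in each tumour). Of 14 genes of alternative activation 5 were higher (median -0.25, between -0.51 and 0.74 in each tumour), so the ranges over tumours overlapped. Of 5 tested metalloproteinase genes 3 were higher, Mmp12, Mmp13 and Mmp8, whereas Mmp14, a membrane-bound metalloproteinase gene, stood at -0.19 and Mmp19 at -0.58. Chemokine genes were split, with 14 of 23 higher (median 0.46), including Ccl3 (1.43), which encodes a monocyte attractant. The lipid droplet gene Plin2 stood 1.13 above and the fatty acid binding protein gene Fabp5 1.32 above the other macrophages.

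**Figure D2:**
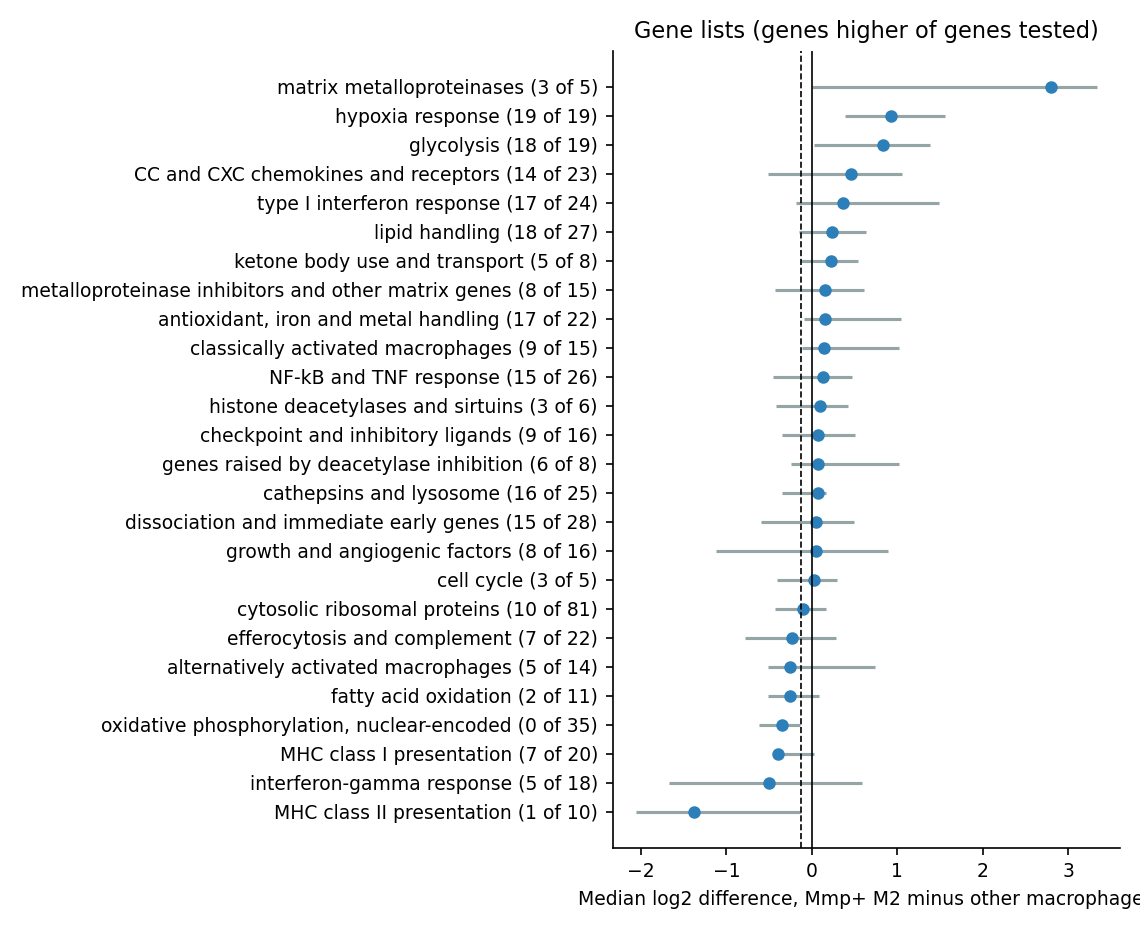
Median log2 difference of each gene list between the Mmp+ M2 macrophages and the other 3 macrophage classes; points are medians over the list's tested genes of the mean over 12 tumours, lines span the medians of the single tumours, and the dashed line is the median of all 4723 genes. The hypoxia list lies right of 0 in every tumour and the MHC class II list left of 0 in every tumour.

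Single cells of the class were not alike. With each cell thinned to 2000 UMIs (390 of 393 cells were deep enough), at least 3 of the 5 markers were seen in 78.2% of the members, against 31.2% of M1 macrophages, 16.4% of Trem2+ M2 macrophages and 0.552% of CD8 T cells, which should lack them. Mmp12 was seen in 51.8% of thinned members (68.7% unthinned), against 2.39% of CD8 T cells (5.37% unthinned), whose median depth was 6263 UMIs against 10214 in the members. Mmp12 and Mmp13 were seen together in 76 members (19.5%), Mmp12 without Mmp13 in 126 (32.3%), Mmp13 without Mmp12 in 29 (7.44%) and neither in 159 (40.8%). If they were independent over the pooled members of all tumours, 13.9% of members would hold both. Here and below, such values do not separate differences between tumours from differences between cells. Arginase and nitric oxide synthase were found in the same cells, with Arg1 seen in 93.9% of the 132 members with a Nos2 count and in 90.7% of the others. Nos2 and Arg1 were together in 31.8% of members, against 31.1% if independent. The interferon genes Isg15 and Rsad2 were shared by 6.15% of members, against 1.92% if independent, and Rsad2 was seen in 35.3% of members with an Isg15 count and in 5.90% of the others. Thinned counts this low miss many transcripts, so these shares are of cells with a count and not of cells expressing the gene.

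The share of the class among a tumour's cells was 16.2%, 15.7% and 14.5% in BD tumours, against 3.37%, 5.4% and 4.03% in SD tumours. It was 8.23%, 3.38% and 9.45% in BD+ICB tumours, against 5.53%, 8.26% and 6.13% in ICB tumours. The BD tumours lay above all SD tumours, while BD+ICB and ICB tumours overlapped. The Wilson 95% interval was 12.5% to 20.7% for BD tumour 1, 9.01% to 26.0% for BD tumour 2 with 11 members, and 9.27% to 22% for BD tumour 3, and such intervals cover counting error only. The difference was 11.2 points between BD and SD (two-sided exact permutation p = 0.1, the smallest that 3 tumours against 3 can give) and 0.379 points between BD+ICB and ICB (exact permutation p = 1). Over both libraries it was 5.79 points (exact permutation p = 0.05, adjusted over 19 classes 0.136). The 2 differences were themselves 10.8 points apart, with the smaller one under blockade, which did not pass the exact permutation test (p = 0.055, adjusted 0.348). With edgeR on cells per class, the log2 difference between BD and SD was 1.87 (adjusted p = 0.0357).

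Neutrophils, which move this denominator, made up 4.95%, 40% and 16.2% of cells in BD and 25.7%, 39.6% and 42.8% in SD tumours. Among the 4 macrophage classes alone, the Mmp+ class made up 26.1%, 33.3% and 23.6% in BD, against 9.72%, 19.5% and 12.7% in SD tumours, still without overlap. There it was 22.3%, 14.4% and 29.1% in BD+ICB, against 13.1%, 36.7% and 27.7% in ICB tumours, a difference of -3.95 points. The authors kept cells with over 500 hashtag counts. Tumours were also assigned without that limit, by a top hashtag of at least 10 counts and 3 times the next. Deposited cells kept their class, and added cells took theirs from neighbouring cells. The share was then 8.42%, 7.26% and 8.53% in BD and 1.12%, 4.29% and 1.51% in SD tumours, a difference of 5.76 points. Tried on the deposited members, this use of neighbours gave 74.8% of them their deposited class.

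**Figure D3:**
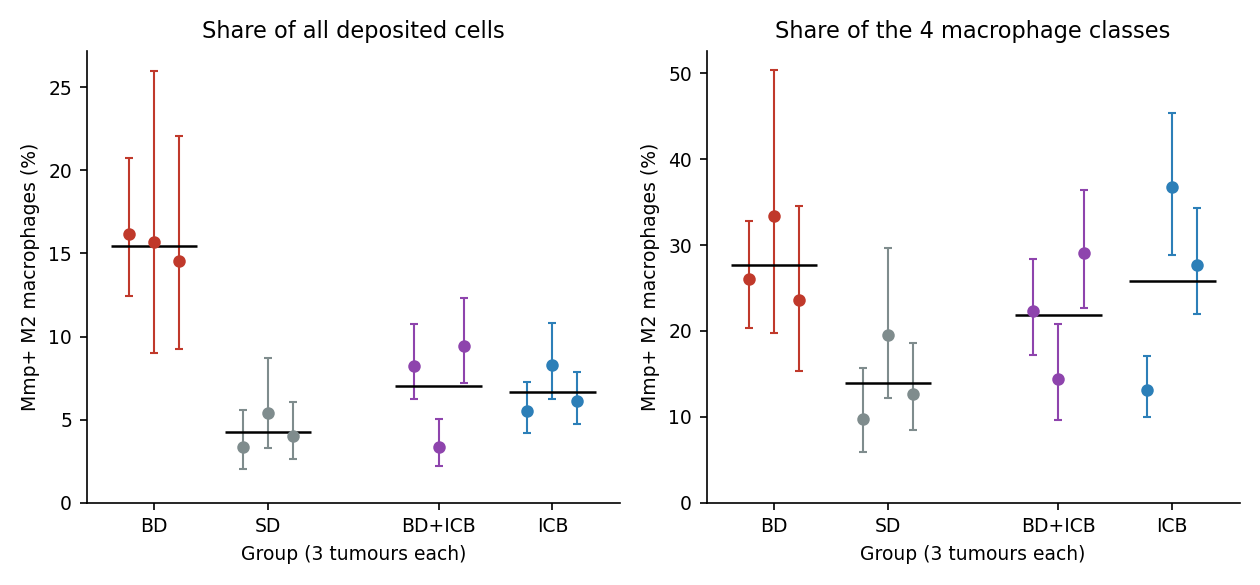
Share of the Mmp+ M2 macrophages in each tumour, in percent of all deposited cells (left) and of the 4 macrophage classes (right); points are tumours with Wilson 95% intervals, and bars are group means of 3 tumours. The 3 BD tumours sit at 14.5% to 16.2% of all cells, above the SD tumours at 3.37% to 5.4%, whereas BD+ICB and ICB tumours overlap.

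The next question was which genes the class expressed differently between BD and SD tumours. Fabp5, which encodes an intracellular carrier of fatty acids, was the 1 gene of 4723 (0.0212%) that passed, with edgeR on counts summed per tumour and adjustment over all genes at 0.05. Unadjusted, 184 genes were higher (3.9%) and 210 lower (4.45%) at p under 0.05. Fabp5 (ENSMUSG00000027533) stood at 1285, 1484 and 1663 CPM in BD tumours, against 602, 518 and 372 CPM in SD tumours, here and below in CPM scaled by TMM factors. Every BD tumour was more than double every SD tumour. On the log2 scale Fabp5 rose by 1.58 ± 0.22 (standard error, here and below; adjusted p = 8.6e-04, edgeR). Without BD tumour 1 the number of called genes was 14 and without SD tumour 3 it was 3. For Fabp5, leaving out any 1 tumour gave 1.39 to 1.73 with the call kept, but the call ended in tumours with at least 20 cells of the class, which leaves 1 BD and 1 SD tumour (1.78, adjusted p = 0.299), and without the hashtag limit (1.23, edgeR adjusted p = 0.0692). Under blockade Fabp5 stood at 890, 1250 and 1067 CPM in BD+ICB tumours, against 751, 992 and 794 CPM in ICB tumours (0.34 ± 0.21), with overlap. Between 75.5% and 90.9% of the members held a Fabp5 count in BD tumours, against 50% to 66.7% in SD tumours. The 3 cells richest in it held 48.1% to 60.7% of its counts in BD tumours, against 67.7% to 81.0% in SD tumours. In Trem2+ M2 macrophages its log2 fold change was -0.03 ± 0.62 between BD and SD and 2.30 ± 0.63 between BD+ICB and ICB, and in M1 macrophages, with 4 tumours, -0.60 ± 0.36 between BD and SD, none past the test. No gene passed the test of a difference from the Trem2+ class between BD and SD.

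Arg1 lay higher in every BD than in every SD tumour without passing. It stood at 5485, 3851 and 4980 CPM in BD tumours, against 1929, 1895 and 3321 CPM in SD tumours (1.00 ± 0.23, edgeR adjusted p = 0.216). The call depended on the method, with an adjusted p of 0.0207 by DESeq2 and 0.0225 by edgeR without SD tumour 3. The arginine transporter gene Slc7a2 was at 136, 154 and 55.6 CPM in BD, against 28.7, 8.77 and 40.1 CPM in SD tumours (2.02 ± 0.59, edgeR adjusted p = 0.32). Under blockade Arg1 stood at 5268, 5755 and 5070 CPM in BD+ICB, against 4296, 7283 and 5487 CPM in ICB tumours (-0.08 ± 0.22), and these groups overlapped. Of the 14 tested genes of alternative activation 10 had positive folds between BD and SD, with a median of 0.37 against 0.02 over all genes.

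Hmox1 (heme oxygenase 1) breaks down heme and is induced by oxidative stress, and its level went in different directions by library. It stood at 1943, 3211 and 6180 CPM in BD tumours, against 869, 991 and 1374 CPM in SD tumours (1.80 ± 0.40, edgeR adjusted p = 0.284). In the other library it was at 1258, 1057 and 1725 CPM in BD+ICB, against 1655, 2508 and 2889 CPM in ICB tumours (-0.80 ± 0.38). The first pair of groups did not overlap and the second did. The difference of these differences was -2.60 ± 0.55 (edgeR adjusted p = 0.52). DESeq2 gave an adjusted p of 7.2e-04 for the BD and SD comparison, and edgeR 0.0050 without BD tumour 1. Of 22 tested antioxidant, iron and metal genes 17 had positive folds between BD and SD (median 0.29) and 11 between BD+ICB and ICB (median 0.00). Hif1a was at 355, 300 and 375 CPM in BD, against 115, 167 and 177 CPM in SD tumours (1.15 ± 0.28, edgeR adjusted p = 0.217), while the hypoxia list had a median of -0.06 with 7 of 19 folds positive. Ankrd37 was at 25.5, 89.2 and 51 CPM in BD, against 239, 149 and 80.2 CPM in SD tumours (-1.64 ± 0.45, edgeR adjusted p = 0.32).

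**Figure D4:**
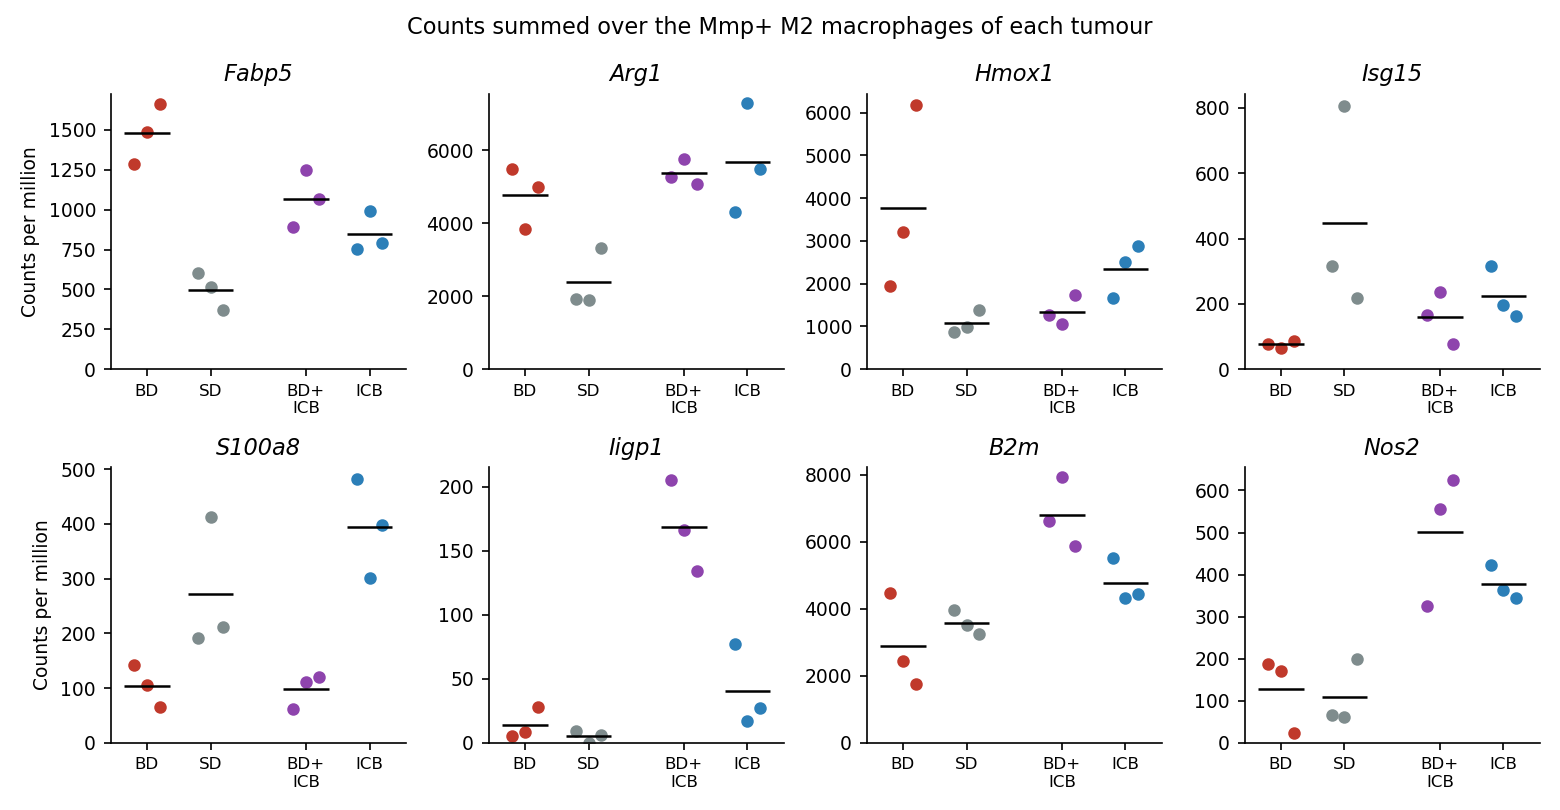
Levels in CPM of 8 genes in the Mmp+ M2 macrophages of each tumour; points are tumours and bars are means of 3 tumours per group. Fabp5, Arg1 and Hmox1 lie higher in every BD than in every SD tumour, and S100a8 and Iigp1 are apart between BD+ICB and ICB tumours, while Nos2 overlaps in both diet comparisons.

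Of 24 tested type I interferon genes 20 had negative folds between BD and SD, with a median of -0.84, and 10 had an unadjusted p under 0.05, all lower (41.7% of the list against 4.45% of all genes), but 0 passed the adjustment. Isg15, a ubiquitin-like interferon effector, stood at 76.6, 64.9 and 88.0 CPM in BD, against 315, 807 and 218 CPM in SD tumours (-2.49 ± 0.62, edgeR adjusted p = 0.322). Rsad2 stood at 70.9, 48.6 and 27.8 CPM in BD, against 430, 1281 and 177 CPM in SD tumours (-3.56 ± 1.16, edgeR adjusted p = 0.48). The groups did not overlap for either gene. Between BD+ICB and ICB tumours the list had 11 of 24 positive folds (median -0.12), with Isg15 at 167, 236 and 76.2 CPM against 316, 197 and 163 CPM. In cells thinned to 2000 UMIs, 5 interferon genes were sought (Isg15, Rsad2, Ifit1, Ifit3, Oasl1). At least 1 of them was seen in 16.3%, 9.09% and 23.5% of members in BD, against 14.3%, 20% and 38.1% in SD tumours. These were 8, 1 and 4 cells in BD and 2, 3 and 8 cells in SD tumours, so both sides rest on few cells. The shares of cells overlapped where the levels did not.

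Other lists between BD and SD were as follows, each with 0 genes past the adjustment. Of 26 genes of the NF-kB and TNF response 22 had negative folds (median -0.33), among them the inhibitor gene Nfkbia at 1188, 1216 and 839 CPM in BD, against 1700, 2193 and 1552 CPM in SD tumours (-0.75 ± 0.20, edgeR adjusted p = 0.28). The chemokine gene Ccl3 had a log2 fold change of -1.58 (edgeR adjusted p = 0.216) and Tnf, the tumour necrosis factor gene, of -1.27 (adjusted p = 0.54). Of 10 MHC class II genes 8 had negative folds (median -0.56), but H2-Ab1 overlapped, at 618, 114 and 389 CPM in BD against 1881, 904 and 166 CPM in SD tumours. Of 81 ribosomal protein genes 80 had negative folds (median -0.41), and 36 an unadjusted p under 0.05, all lower, against 4.45% of all genes. Of 25 cathepsin and lysosome genes 17 were positive (median 0.11).

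Of 8 tested genes of ketone use and transport 5 had negative folds (median -0.32), and 0 passed. Hcar2, the cell surface receptor of β-hydroxybutyrate, was at 25.5, 0 and 0 CPM in BD, against 66.9, 79.0 and 11.5 CPM in SD tumours (-1.88 ± 1.00, edgeR adjusted p = 0.65), and at 48.8, 93.2 and 60.0 CPM in BD+ICB, against 93.0, 53.4 and 34.1 CPM in ICB tumours. Both pairs of groups overlapped. The 6 tested deacetylase and sirtuin genes had a median of -0.09, and the 8 genes raised by deacetylase inhibition one of 0.22 between BD and SD and -0.01 between BD+ICB and ICB.

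Like Arg1, described above, the other 4 markers of the class and Nos2 did not pass edgeR's test between BD and SD or between BD+ICB and ICB tumours. Mmp12 stood at 1446, 2027 and 1209 CPM in BD tumours, against 965, 1368 and 1924 CPM in SD tumours (0.12 ± 0.38), and at 2703, 1905 and 3232 CPM in BD+ICB, against 1966, 3477 and 1253 CPM in ICB tumours (0.23 ± 0.36). Both pairs overlapped. Mmp13 stood at 213, 219 and 92.7 CPM in BD, against 47.8, 158 and 275 CPM in SD tumours (0.03 ± 0.74), and at 508, 189 and 451 CPM in BD+ICB, against 450, 1199 and 431 CPM in ICB tumours (-0.84 ± 0.59). The standard errors leave room for changes well beyond a doubling of Mmp13. Mmp8 was at 199, 0 and 51.0 CPM in BD, against 38.2, 61.4 and 137 CPM in SD tumours. Spp1 spread most within BD, at 5408, 12680 and 2682 CPM, against 7354, 6702 and 6659 CPM in SD tumours (0.00 ± 0.68). Pf4 was at 2788, 2675 and 5448 CPM in BD, against 1576, 2062 and 3865 CPM in SD tumours (0.54 ± 0.67), with overlap. Nos2 stood at 187, 170 and 23.2 CPM in BD, against 66.9, 61.4 and 200 CPM in SD tumours (0.11 ± 0.69), and at 325, 556 and 626 CPM in BD+ICB, against 422, 364 and 345 CPM in ICB tumours (0.41 ± 0.50).

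Between BD+ICB and ICB tumours 1 gene of 4723 (0.0212%) passed, and unadjusted 126 were higher (2.67%) and 107 lower (2.27%) at p under 0.05. S100a8, which encodes a calcium-binding protein abundant in neutrophils, stood at 62.2, 111 and 120 CPM in BD+ICB, against 483, 301 and 399 CPM in ICB tumours, without overlap. S100a8 fell by 2.02 ± 0.30 on the log2 scale (edgeR adjusted p = 0.0092). Its counts sat in few cells, since the richest member held 8 of 37, 19 of 38 and 26 of 74 counts in the BD+ICB tumours, against 182 of 270, 108 of 180 and 138 of 222 in the ICB tumours. Cells with any S100a8 count were 36.2%, 54.5% and 52.1% of members in BD+ICB, against 32.6%, 44.7% and 32.1% in ICB tumours, so the share of such cells did not follow the level. The 8 neutrophil markers summed to 172 to 231 CPM in the members of BD+ICB and to 755 to 1360 CPM in those of ICB tumours, with 2 of 8 and 4 of 8 over 20 CPM, and neutrophils made up 3.50%, 4.30% and 20.1% of cells in BD+ICB, against 12.7%, 47.6% and 45.7% in ICB tumours. Their part in the S100a8 call was not tested. In CD8 T cells the S100a8 fold was -4.77 ± 1.35 on the log2 scale (edgeR adjusted p = 0.363), and in Trem2+ M2 macrophages -0.65 ± 0.77. With a stricter hashtag rule the log2 fold change was -1.03 (edgeR adjusted p = 1.00) and without the hashtag limit -0.96, and the call also ended without BD+ICB tumour 1 (-1.77, adjusted p = 0.0634) or BD+ICB tumour 2 (-2.11, adjusted p = 0.0552), which left 0 calls each, while 4 genes were called without ICB tumour 1 and 2 without ICB tumour 3.

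Interferon-gamma response genes lay higher in BD+ICB than in ICB tumours, without any call. All 18 tested genes had positive folds, with a median of 0.70 against 0.00 over all genes, and 11 had an unadjusted p under 0.05, all higher (61.1% against 2.67% of all genes). Iigp1, an interferon-inducible GTPase, stood at 205, 166 and 135 CPM in BD+ICB, against 76.9, 16.7 and 26.9 CPM in ICB tumours (2.07 ± 0.41, edgeR adjusted p = 0.18). The guanylate-binding protein gene Gbp2 averaged 326 CPM in BD+ICB and 118 CPM in ICB tumours (1.45, edgeR adjusted p = 0.52). The same list had a median of 0.11 between BD and SD. Of 20 MHC class I genes 17 had positive folds (median 0.32), as had all 10 MHC class II genes (median 0.34), while 16 of 19 hypoxia genes (median -0.31) and 15 of 19 glycolysis genes (median -0.28) had negative folds. The fractalkine receptor gene Cx3cr1 was at 0, 11.7 and 13 CPM in BD+ICB, against 41.1, 45.1 and 41.3 CPM in ICB tumours (-2.40 ± 0.50, edgeR adjusted p = 0.15).

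Over both libraries together 2 genes passed for the diet (0.0423%), Fabp5 higher (0.96 ± 0.15) and S100a8 lower (-1.67 ± 0.23), both at an edgeR adjusted p of 0.0029. Both calls ended in tumours with at least 20 members, with the stricter hashtag rule and without the hashtag limit, where Fabp5 stood at 1.05, 0.83 and 0.77 and S100a8 at -1.31, -0.56 and -0.55. The 2 calls became 6 without BD tumour 1, 4 without SD tumour 3 and 5 without any of the ICB tumours. The diet effects of the 2 libraries differed in 0 genes by edgeR and 1 by DESeq2, and 233 genes (4.93%) had an unadjusted edgeR p under 0.05. Without BD tumour 1, edgeR called 5. The MHC class II list leaned most, with 10 of 10 differences positive (median 1.15), that is, higher under blockade.

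Between BD+ICB and BD tumours, which differ in blockade and in library, 51 genes (1.08%) were called, 37 higher (0.783%) and 14 lower (0.296%). Of 18 interferon-gamma response genes 9 rose and all 18 had positive folds (median 1.64). Gbp4 stood at 63.9, 93.2 and 40.5 CPM in BD+ICB, against 2.84, 0 and 0 CPM in BD tumours (5.16 ± 0.84, edgeR adjusted p = 0.0020), and Gbp5 at 30.3, 52.4 and 58.4 CPM against 5.67, 0 and 4.63 CPM (3.34 ± 0.66, adjusted p = 0.012). Iigp1 was at 205, 166 and 135 CPM in BD+ICB, against 5.67, 8.11 and 27.8 CPM in BD tumours (3.64 ± 0.59, edgeR adjusted p = 0.0093). In all 3 genes every BD+ICB tumour lay above every BD tumour. Slamf8, a myeloid cell surface receptor gene, had 92 counts in BD+ICB and 0 in BD tumours, so it was at least 13.6-fold higher, against a floor of 3 counts over the group. Cd274, which encodes the checkpoint ligand PD-L1, stood at 249, 297 and 203 CPM in BD+ICB, against 142, 114 and 83.4 CPM in BD tumours (1.10 ± 0.26, edgeR adjusted p = 0.035).

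MHC class I genes rose as well, 6 of 20 (B2m, H2-K1, H2-T23, Tap2, Tapbp and Psme2), with a median of 0.89. B2m, the common light chain of class I molecules, stood at 6622, 7925 and 5863 CPM in BD+ICB, against 4464, 2448 and 1765 CPM in BD tumours (1.23 ± 0.25, edgeR adjusted p = 0.019), without overlap. H2-K1, whose sequence is close to other class I genes so that reads may be shared, stood at 2247, 2653 and 1833 CPM in BD+ICB, against 1412, 778 and 899 CPM in BD tumours (1.11 ± 0.24, edgeR adjusted p = 0.020). Among genes that fell were Gbe1, the glycogen branching enzyme gene, at 15.1, 8.74 and 14.6 CPM in BD+ICB against 42.5, 73.0 and 64.9 CPM in BD tumours (-2.05 ± 0.41, adjusted p = 0.013), and Cx3cr1 (-2.48 ± 0.56, edgeR adjusted p = 0.027). The 51 calls became 7 without BD tumour 3, 8 without BD+ICB tumour 2, 14 without BD tumour 2, 32 without BD+ICB tumour 1 and 181 without BD tumour 1, and 2 with at least 20 members, which leaves 1 BD tumour.

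Between ICB and SD tumours, again across libraries, 140 genes (2.96%) were called, 29 higher (0.614%) and 111 lower (2.35%). Arg1 rose (1.25 ± 0.23, edgeR adjusted p = 0.0020), as did Slc7a2 (2.63 ± 0.53, adjusted p = 0.0093), Hif1a (1.15 ± 0.27, adjusted p = 0.015) and the uridine phosphorylase gene Upp1 (2.11 ± 0.45, adjusted p = 0.0069). Egr2, a transcription factor gene of alternative activation, rose too (2.92 ± 0.69, edgeR adjusted p = 0.015), and Ankrd37 fell (-2.02 ± 0.41, edgeR adjusted p = 0.0054). All 5 tested metalloproteinase genes, of 18 listed, had positive folds (median 0.92) and 0 passed, with Mmp13 at 2.03 ± 0.68 (edgeR adjusted p = 0.20) and Mmp14 at 0.92 ± 0.27 (edgeR adjusted p = 0.072). Most of the lowered genes coded for ribosomal proteins, 67 of 81 (median -1.01), and the same number was called in Trem2+ M2 macrophages (median -0.82) and 56 of 81 in CD8 T cells (median -0.62). In M1 macrophages and Cxcr2+ neutrophils 0 of 81 were called, with medians of -0.50 and -0.53. The M1 and CD8 T cell fits rested on 5 tumours each, against 6 in the other classes. Depth differed too, with a median of 2393 UMIs in these neutrophils against 10214 in the members. The counts of calls therefore do not compare the classes. Gm42418, a predicted gene that overlaps ribosomal RNA sequence, stood at 88036, 90127 and 92198 CPM in ICB, against 27725, 17940 and 34581 CPM in SD tumours (1.75 ± 0.20, edgeR adjusted p = 2.2e-05), so its share of all counts differed between the libraries, and its part in the other folds was not tested. The 140 calls became 82 without SD tumour 1, 69 without SD tumour 2, 75 without ICB tumour 2 and 68 without ICB tumour 3, and 5 with at least 20 members, which leaves 1 SD tumour.

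**Figure D5:**
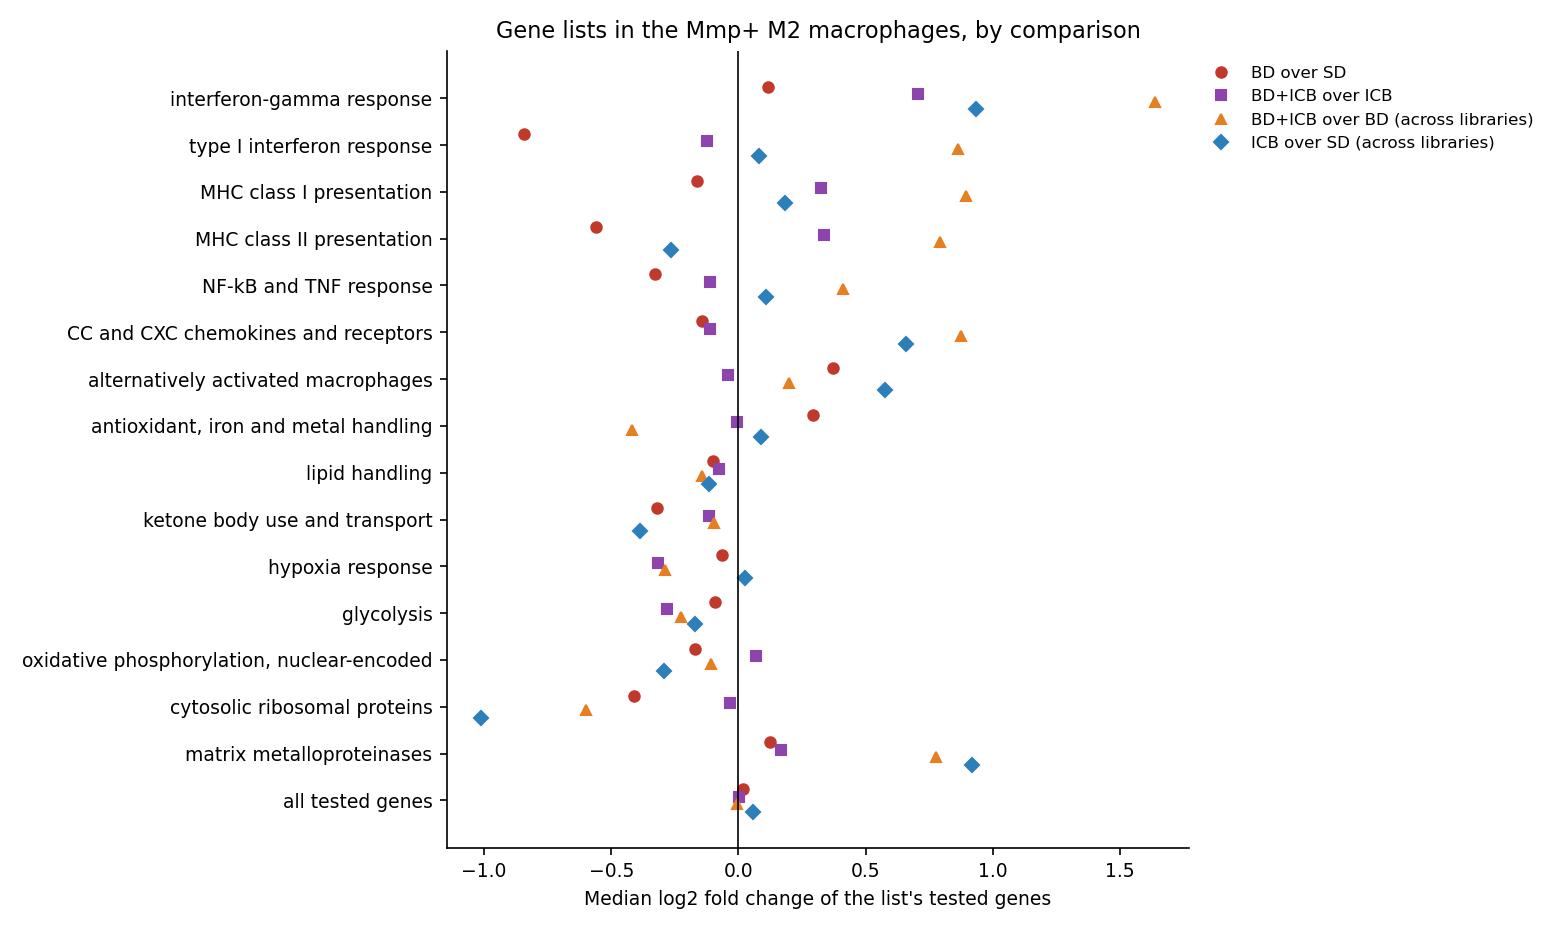
Median log2 fold change of 15 gene lists and of all tested genes in the Mmp+ M2 macrophages, by comparison; genes without a count in the group compared against are set at their bound. The type I interferon list lies at -0.84 between BD and SD and at -0.12 between BD+ICB and ICB, and the interferon-gamma list at 0.11 and 0.70.

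Whether the diet acted differently on this class than on the Trem2+ M2 macrophages of the same tumours was tested in 1 edgeR fit with tumour as block, over 5434 genes. Between BD and SD 0 genes differed (241 at an unadjusted p under 0.05, 4.44%), and between BD+ICB and ICB 3 did (0.0552%). For Nos2 the difference was -2.83 ± 0.47 (edgeR adjusted p = 0.012). In plain CPM its mean was 483 in BD+ICB and 368 in ICB tumours in the Mmp+ class, against 124 in BD+ICB and 12.7 in ICB tumours in the Trem2+ class, so the level was higher in the Mmp+ class in both groups while the fold was larger in the Trem2+ class (0.41 ± 0.50 and 3.09 ± 0.60). The other 2 were Tnfsf9 (-1.81 ± 0.37), which encodes the ligand of the receptor that Tnfrsf9 encodes, and the galectin gene Lgals3 (-1.21 ± 0.24), both at an edgeR adjusted p of 0.038. Over both libraries 5 genes differed (0.092%), namely Tnfsf9 (-1.64), Plin2 (-1) and Lgals3 (-0.83), which stood lower under the diet in the Mmp+ class relative to the Trem2+ class, and AW112010 (1.03) and the proteasome gene Psmc1 (1.99), which stood higher. With 1 tumour left out at a time, the 3 calls became 0 without BD+ICB tumour 2 and 2 without BD+ICB tumour 1. They became 1 without SD tumour 3, ICB tumour 2 or ICB tumour 3. They became 5 without BD tumour 1, BD+ICB tumour 3 or ICB tumour 1, and 6 without BD tumour 3. The 0 calls between BD and SD became 1 without BD tumour 3. The 5 calls over both libraries became 0 without SD tumour 1. They became 1 without BD tumour 2, SD tumour 3, BD+ICB tumour 1, ICB tumour 2 or ICB tumour 3. They became 2 without BD+ICB tumour 3 and 3 without BD tumour 1 or BD tumour 3. Without SD tumour 2 or ICB tumour 1 they became 4, and without BD+ICB tumour 2 they became 6. These genes were named after their values were seen. With M1 in place of Trem2+ macrophages (10 tumours) the counts were 0 between BD and SD, 2 between BD+ICB and ICB and 0 over both libraries. Within M1 macrophages the log2 folds between BD+ICB and ICB were 1.87 ± 0.42 for Nos2, -0.55 ± 0.20 for Tnfsf9 and 0.14 ± 0.26 for Lgals3. The Tnfsf9 folds were -0.57 ± 0.37 in the Mmp+ class and 1.22 ± 0.48 in the Trem2+ class.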

How the data were processed

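Cells of 12 tumours were measured in 2 pooled droplet libraries with hashtags. The UMI counts were deposited as matrices of genes by barcodes (Cell Ranger 6.1.1, per the file headers), and the submitters' processing notes name R 4.1 and the mm10 build. The deposited table of cells lists for each cell its class, its tumour and, as the authors computed it, the percent of mitochondrial UMIs. How the authors clustered the cells was not given in what was used here. Hashtag counts were deposited in separate matrices. Of 36632 barcodes the 5749 deposited cells all exceeded 500 hashtag counts, showed at least 250 genes and stayed under 5% mitochondrial UMIs, as tested on the files. The deposited expression table covers 18848 of 32287 genes, and 0.00369% of counts lay outside it. No doublet caller was run, so doublets within a tumour remain.

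Counts were summed over the members of a tumour, all with at least 10 members, and fitted with edgeR 4.0.16 in R 4.3.3 (quasi-likelihood test, TMM, filterByExpr, 4 group means in 1 fit, no replicate block), with Benjamini-Hochberg adjustment over 4723 genes at 0.05. For shares, tumour labels were permuted exactly, within libraries where both were pooled, and tests were two-sided. DESeq2 1.42.0 was an alternative, as were no filter, at least 20 members or 1000 UMIs, a replicate block, other denominators and leaving out each tumour. Another used stricter hashtags (the top hashtag 3 times the next and not under 10 counts). Own assignment without the hashtag limit applied this stricter rule in place of the 500 counts. There, cells outside the deposited table took their class from 15 neighbours on 30 principal components of 2000 genes, and deposited cells kept theirs.

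Members and lists were chosen with earlier results of these data known. Named genes were the markers, 20 leaders, up to 10 raised and 10 lowered per comparison, up to 4 members of each of 25 lists and of the ribosomal list with the highest mean, and a set of immune genes; further list members were named after their values were seen. The labels name tumours and not mice, so p-values measure the spread between these tumours. Promoters and positions came from RefSeq (GRCm38.p6). Results for some single genes are not reported here.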

Additional observations from a re-analysis of the deposited data

Results flagged for a closer look

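For 6 genes the effect of the diet in the Mmp+ M2 macrophages differed from that in the Trem2+ M2 macrophages of the same tumours, by the test of that difference in edgeR (12 tumours, tumour as block). Values are the log2 effect in the Mmp+ class minus that in the Trem2+ class. Between BD+ICB and ICB tumours it was -2.83 for Nos2, -1.81 for Tnfsf9 and -1.21 for Lgals3. Over both libraries it was -1.64 for Tnfsf9, -1 for Plin2, -0.83 for Lgals3, 1.03 for AW112010 and 1.99 for Psmc1. The effect within the Mmp+ class alone passed for none of the 6, and that within the Trem2+ class for none either, by edgeR. Plin2 averaged 700 CPM in BD and 1036 CPM in SD tumours in the Mmp+ class, and 441 CPM in BD and 417 CPM in SD tumours in the Trem2+ class. Psmc1 averaged 53.0 CPM in BD and 8.17 CPM in SD tumours in the Mmp+ class. Its level in the SD tumours ran from 0 to 16.9 CPM there, near the floor. In the Trem2+ class Psmc1 averaged 52.8 CPM in BD and 49.7 CPM in SD tumours. Over both libraries the call ended in 13 of 16 alternatives for Psmc1, 12 for Plin2, 12 for Lgals3, 11 for AW112010 and 3 for Tnfsf9. Between BD+ICB and ICB it ended in 10 of 16 for Lgals3, 7 for Tnfsf9 and 3 for Nos2. Lgals3 averaged 3540 CPM in BD+ICB and 5234 CPM in ICB tumours in the Mmp+ class, and 1961 CPM in BD+ICB and 1315 CPM in ICB tumours in the Trem2+ class.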

How the results depend on the processing

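The BD over SD share difference stayed positive in all 22 alternatives, lay between 10.8 and 11.8 points without any 1 tumour, and passed with edgeR on cells per class (1.87, log2). The BD+ICB over ICB share difference turned to -3.95 points among macrophage classes, -3.17 without neutrophils and, in alternatives chosen after seeing the data, -0.0105 among immune cells and -0.40 among macrophage classes without the hashtag limit; without 1 tumour it ran from -0.836 to 2.20. It ran from 5.19 to 6.70 points over both libraries and from -12.0 to -9.01 for the difference of the 2 effects.

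Counts of called genes, in the order BD over SD, BD+ICB over ICB, diet over both libraries and difference of diet effects (1, 1, 2 and 0 as reported), were 26, 22, 40 and 1 with no filter and 0, 3, 0 and 0 with at least 20 members, a limit that leaves 1 BD and 1 SD tumour, whose spread is then taken from the other groups. They were 1, 2, 0 and 0 with stricter hashtags, 0, 2, 0 and 0 without the hashtag limit, and 14, 1, 6 and 1 with DESeq2. With only the groups compared, BD+ICB over ICB gave 3. Without 1 tumour they ran from 1 to 14, 0 to 4, 2 to 6 and 0 to 5. ICB over SD (140) gave 5 with at least 20 members and 68 to 165 without 1 tumour. BD+ICB over BD (51) gave 157 with no filter, 2 with at least 20 members, 33 with stricter hashtags, 27 with only the groups compared, 86 with DESeq2, and 7 to 181 without 1 tumour. Against the Trem2+ class, BD over SD (0) gave 7 with no filter and 0 to 1 without 1 tumour, BD+ICB over ICB (3) gave 11 with no filter, 8 with at least 20 members and 0 to 6, and both libraries (5) gave 17, 2, 0 with M1 in place of Trem2+, and 0 to 6. The cause was not tested.

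The correlation of same-numbered tumours of a library ran from -0.017 to 0.153 over 6 pairs, with 2 over 0.1. Such values do not settle whether replicate numbers pair the tumours, and the main fits used no pairing. With a replicate block the 4 diet counts were 3, 4, 4 and 1, and the BD over SD share difference had an exact permutation p of 0.25. Of 1424 alternatives for 70 single-gene results, 281 lost the call, 13 gained it and 0 turned the sign. Only 2 of the 70 results kept their call under every alternative. Both were for the gene Gm10076, in ICB over SD and in BD+ICB over BD, which are comparisons across libraries. Depth limits what can be seen, since BD and SD tumours held 11 to 49 members each.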
